A study of Homo sapiens with 9 samples.

Results

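The change of the transcriptome of HUCCT-1 cells after silencing of YAP and TAZ with combination 2 of gene-specific siRNAs was analyzed. The members were the 3 arrays labelled as combination 2 (YAP siRNA 2 together with TAZ siRNA 3) and the 3 arrays of scrambled siRNA, so 6 of the 9 arrays of the series, with all 39334 probe sets measured on them. HUCCT-1 is an established line of human cholangiocarcinoma, the cancer of the bile duct epithelium. Cells of every group were transfected with siRNA at 40 nM in total and RNA was taken after 24 h, and the scrambled arrays come from cells that received a nonsense siRNA instead of targeting siRNAs. The remaining 3 arrays received combination 1 (YAP siRNA 1 together with TAZ siRNA 2) under the same conditions. For the arrays, the study's methods name only YAP siRNA 1 and TAZ siRNA 2, so combination 2 is known from the sample labels. The methods list TAZ siRNAs 1 and 2 and do not say which siRNA is TAZ 3. All values stem from 1 cell line, and the study calls the arrays biological samples without saying whether the 3 of a group came from separate cultures, and the p-values therefore describe the spread of these samples alone, which may be technical.

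YAP (gene YAP1) and its paralogue TAZ (gene WWTR1) are transcriptional co-activators without a DNA-binding domain of their own. They enter the nucleus when the kinases of the Hippo pathway are inactive and bind DNA mainly through TEAD transcription factors, often at sites that AP-1 factors occupy as well. Their best known targets are ANKRD1, CCN1 (CYR61) and CCN2 (CTGF), and many negative regulators of the pathway are targets too. In bile duct cells both co-activators are linked to growth, to contact with neighbouring cells and to the matrix.

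Promoter windows were taken from RefSeq (GRCh38.p14), and the 250 bases before the transcription start are shown for 6 genes that the results turn on. The windows searched covered these 250 bases and the 50 after the start. All 6 were picked and hold a match to a motif. ANKRD1 and CCN2 are among the classical targets and fell. For CCN1, a classical target that fell as well, no GGAATG was found. Capitals mark GGAATG, the core letters bound by TEAD factors.
ANKRD1, chr10:90921088-90921337, minus strand: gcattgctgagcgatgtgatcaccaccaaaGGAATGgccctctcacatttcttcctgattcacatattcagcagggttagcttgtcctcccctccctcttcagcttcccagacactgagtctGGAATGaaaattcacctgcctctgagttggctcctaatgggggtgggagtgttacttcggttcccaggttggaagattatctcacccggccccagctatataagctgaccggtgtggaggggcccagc
CCN2, chr6:131951373-131951622, minus strand: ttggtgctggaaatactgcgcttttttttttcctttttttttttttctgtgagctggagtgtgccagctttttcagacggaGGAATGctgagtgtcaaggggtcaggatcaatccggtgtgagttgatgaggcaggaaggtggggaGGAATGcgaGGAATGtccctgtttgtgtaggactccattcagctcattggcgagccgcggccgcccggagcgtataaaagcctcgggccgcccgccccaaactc

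EMP1 and ADGRF4 were among the genes with the largest increases. Capitals mark TGANTCA, a loose form of the AP-1 motif in which N stands for any base.
EMP1, chr12:13196476-13196725, plus strand: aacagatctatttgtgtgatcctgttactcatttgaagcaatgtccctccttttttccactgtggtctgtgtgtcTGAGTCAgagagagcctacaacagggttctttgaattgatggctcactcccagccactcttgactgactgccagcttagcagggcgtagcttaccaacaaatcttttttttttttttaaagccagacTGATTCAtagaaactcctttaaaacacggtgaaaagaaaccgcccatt
ADGRF4, chr6:47698330-47698579, plus strand: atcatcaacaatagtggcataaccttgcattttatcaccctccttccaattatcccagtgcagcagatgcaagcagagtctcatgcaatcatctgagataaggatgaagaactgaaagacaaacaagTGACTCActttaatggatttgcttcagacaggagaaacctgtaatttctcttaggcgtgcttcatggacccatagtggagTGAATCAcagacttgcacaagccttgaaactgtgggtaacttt

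DDX60 and SAMD9 belong to the interferon response genes that rose. Capitals mark GAAA, any 2 bases and GAAA, the core of the interferon-stimulated response element.
DDX60, chr4:168318753-168319002, minus strand: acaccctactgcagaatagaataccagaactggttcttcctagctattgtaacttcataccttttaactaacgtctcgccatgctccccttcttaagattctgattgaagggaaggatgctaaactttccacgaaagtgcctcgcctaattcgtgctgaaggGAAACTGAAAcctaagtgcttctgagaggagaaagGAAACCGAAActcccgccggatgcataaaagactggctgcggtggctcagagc
SAMD9, chr7:93117980-93118229, minus strand: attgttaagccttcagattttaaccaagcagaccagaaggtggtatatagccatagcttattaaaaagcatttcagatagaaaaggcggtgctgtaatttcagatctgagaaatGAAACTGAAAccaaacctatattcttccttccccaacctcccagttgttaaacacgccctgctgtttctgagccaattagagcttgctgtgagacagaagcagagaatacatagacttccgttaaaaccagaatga

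Of the genes tested, 22024 had a promoter window, and so had 205 of the 279 genes (0.750% of those tested) that passed the test with combination 2. GGAATG on either strand was found in at least 1 window of 16.5% of all these genes, in 24 of 114 lower genes (21.1%) and in 15 of 91 higher genes (16.5%). ANKRD1 held it at −220 and −128 from the start and CCN2 at −169, −104 and −95, all on the strand of the gene. UHMK1 held 1 copy, which lies at −150 or −137 depending on which of its overlapping windows is counted from, and AMOTL2 at −69 on the opposite strand in 1 of 2 windows. TGANTCA was found in 9.33% of all genes, in 14 of 114 lower genes (12.3%) and in 13 of 91 higher genes (14.3%). EMP1 held it at −175 and −48 and ADGRF4 at −123 and −43. Lower genes held it too, such as ANKRD1 at −195, LTAP1 at −37 and ADAMTS12 at −84. The pair of GAAA with 2 bases between was found in 4.37% of all genes, in 7 of 114 lower (6.14%) and in 13 of 91 higher genes (14.3%). DDX60 held it at −88 and −53 and SAMD9 at −136. PARP9 and DTX3L, which are transcribed away from each other, held the same copy, GAAACTGAAA at chr3:122564332-122564341, at −41 and −6 from their starts. The 3 motifs do not share their full letters, and a match describes the sequence and is not a measured binding site.

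Each value is a log2 signal of a probe set, background-corrected and normalized by the authors with RMA. The 37201 probe sets with 1 named gene were tested without a filter on low signals in 1 limma model of all 9 arrays, and a gene was called changed at a Benjamini-Hochberg adjusted p under 0.05 over all these genes. The array medians were 5.81, and the median SD within a group was 0.096 with scrambled siRNA, 0.081 with combination 1 and 0.11 with combination 2. One array, combination 2 replicate 3, lay away from the rest, at −27.6 on the second principal component of all named genes, where the remaining 8 arrays lay between −15.5 and 11.7, and it got a weight of 0.412 when arrays were weighted by their spread. Combination 2 replicate 2 lay at 25.3 on the third component, where the other 8 arrays lay between −16.7 and 6.54, and leaving it out gave the fewest calls (81). Leaving out replicate 3 gave 358 called genes, 207 of them among the 279 of the full set. As each group has 3 arrays, the model was also refitted without each of the 9 arrays, and calls that did not hold in all of these 9 fits are named as such. Of the markers of bile duct epithelium, KRT7 had a log2 signal between 11.70 and 11.71 and KRT19 between 11.39 and 11.57 on the scrambled arrays. ALB, the hepatocyte albumin gene, lay between 4.22 and 4.29 and PTPRC, the leukocyte marker CD45, between 4.23 and 4.35. These are single genes of their lists, and the list means lay closer together. The mean scrambled signal was 8.43 over the 12 biliary markers measured. It was 5.62 over the hepatocyte markers, 5.74 over the leukocyte markers and 6.08 over all genes. None of the 11 hepatocyte, 10 fibroblast, 9 leukocyte and 8 endothelium markers measured passed the test of change with combination 2. That test does not ask whether a marker is present. The number of arrays limits the precision.

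Both siRNA targets were clearly reduced. YAP1 had log2 signals of 9.15, 9.06 and 9.08 on the scrambled arrays and of 6.86, 6.73 and 6.97 on the combination 2 arrays. The difference on the log2 scale was −2.24 (n = 3 arrays in each group, standard error 0.071, adjusted p = 1.41e-05 from limma), and 21.1% of the scrambled level remained. WWTR1 had 8.41, 8.30 and 8.38 with scrambled siRNA and 6.95, 6.98 and 6.99 with combination 2. Its difference was −1.39 (standard error 0.053, adjusted p = 3.43e-05), with 38.2% remaining. The groups did not overlap for either gene, and both calls held in each of the 9 fits without 1 array. Against combination 1, YAP1 differed by −0.03 (95% interval −0.19 to 0.14) and WWTR1 by −0.04 (−0.17 to 0.08) on the log2 scale. In bulk RNA, fewer cells of a kind and less RNA per cell cannot be told apart.

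In total, 279 genes (0.750% of 37201) changed with combination 2, of which 166 (0.446%) were lower and 113 (0.304%) higher. Decreases were the larger changes. Beyond 1 on the log2 scale, 11 genes were lower and 3 higher. The median log2 fold change was −0.52 among the lower and 0.49 among the higher genes, compared with 0.02 among all genes, with quartiles at −0.08 and 0.09. The smallest change that passed was 0.27 in size. All 279 genes had combination 2 arrays that did not overlap the scrambled arrays, as had 18.1% of all genes. Without adjustment 4935 genes had a p under 0.05. Over all 37201 genes, 20387 had a positive and 16812 a negative log2 fold change. These counts, and the 0.750% that passed, are the background for the gene lists below. Genes were split into 5 classes of equal size by mean signal, and 2.46% of the brightest class passed compared with 0.108% of the dimmest. By gene type, 103 protein-coding genes were higher and 130 lower (1.28% of 18215), whereas 8 long non-coding RNAs were higher and 10 lower (0.169% of 10629).

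**Figure D1:**
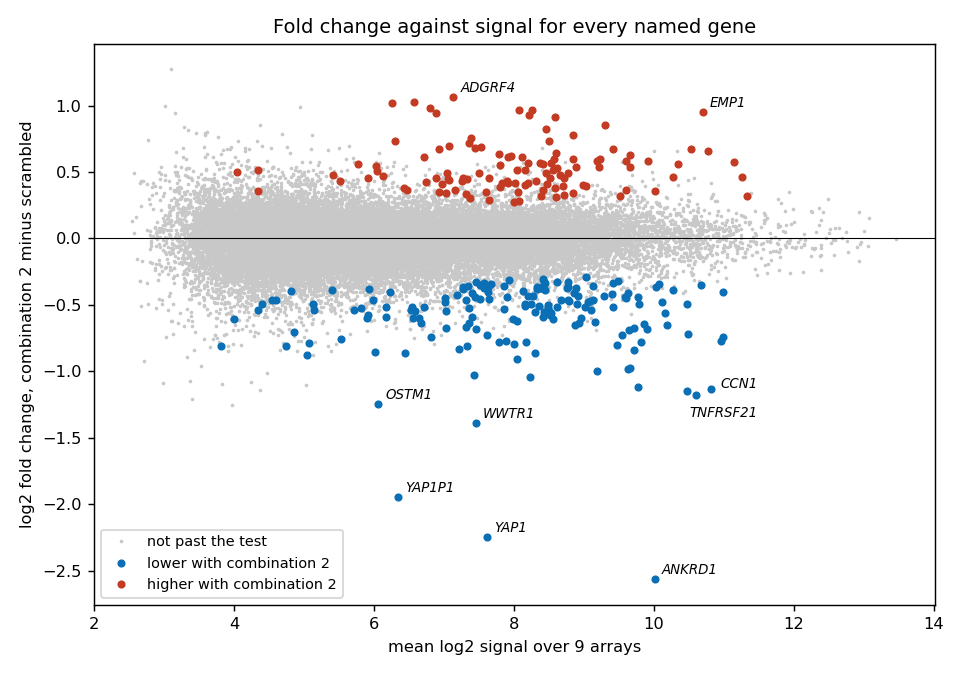
Log2 fold change (combination 2 minus scrambled, vertical axis) against the mean log2 signal over 9 arrays (horizontal axis) for 37201 named genes; grey points did not pass the test, blue points are the 166 lower and red points the 113 higher genes. ANKRD1, YAP1, the pseudogene YAP1P1 and WWTR1 lie below −1.3, and no higher gene that passed exceeds 1.1.

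The count of called genes depended on single arrays. When a scrambled array was left out (replicate 1, 2 or 3 in this order), 95, 85 or 156 genes passed. Omission of a combination 1 array in the same order gave 155, 133 or 142 genes, and of a combination 2 array 101, 81 or 358. More genes were lower than higher in each of these fits, such as 50 lower and 31 higher without combination 2 replicate 2. Over the 166 lower genes, the median distance from the scrambled mean was −0.54 on replicate 1, −0.54 on replicate 2 and −0.47 on replicate 3. Replicate 3 was the highest of the 3 combination 2 arrays in 94 of the 166. Over the 113 higher genes the medians were 0.46, 0.51 and 0.53, and replicate 1 was the lowest of the 3 in 68. Since these genes were chosen on the same arrays, the medians only describe how the replicates spread.

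**Figure D2:**
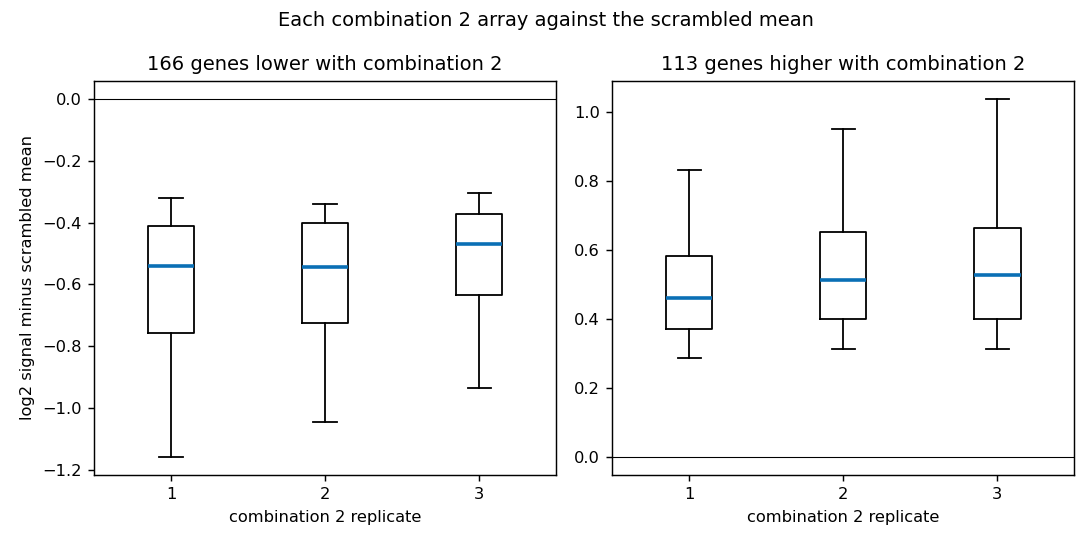
Log2 signal of each combination 2 array minus the scrambled mean (vertical axes, each panel with its own range) for the 166 lower genes (left) and the 113 higher genes (right), by replicate; boxes show the median and quartiles, whiskers the 5th to 95th percentile. Among the lower genes replicate 3 sits closest to the scrambled mean, with a median of −0.47, and among the higher genes replicate 1, with 0.46.

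The classical YAP/TAZ targets ANKRD1, CCN1 and CCN2 were lower. ANKRD1, a cofactor of transcription in stressed muscle and a classical YAP target, had log2 signals of 11.72, 11.62 and 11.41 with scrambled siRNA and of 8.85, 8.93 and 9.29 with combination 2. The decrease by −2.56 on the log2 scale (standard error 0.13, adjusted p = 2.44e-04) left 16.9% of the signal, the largest decrease among the called genes. CCN1, a secreted matrix protein that binds integrins, had 11.35, 11.39 and 11.46 with scrambled siRNA and 10.27, 10.36 and 10.16 with combination 2, a change of −1.13 (standard error 0.067, adjusted p = 4.29e-04). CCN2, its relative in the same family, had 7.88, 7.84 and 7.84 compared with 7.09, 7.08 and 6.96, a change of −0.81 (standard error 0.056, adjusted p = 9.80e-04). In none of these genes did the groups overlap, and the highest combination 2 array of ANKRD1 was replicate 3.

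Of the 7 targets that the study followed by qPCR, 6 were measured here. Of these, 5 were lower and 0 higher (0.446% and 0.304% over all genes), with a median of −0.89. UHMK1, a kinase that binds stathmin and splicing factors, had 10.06, 10.00 and 10.10 with scrambled siRNA and 9.02, 9.04 and 9.18 with combination 2 (log2 fold change −0.97, adjusted p = 0.00102). DLC1, a tumor suppressor first described in liver cancer, fell by 0.40 on the log2 scale (adjusted p = 0.0107), from between 6.48 and 6.52 to between 6.08 and 6.11. Its call was lost without scrambled replicate 1 or 2 or combination 2 replicate 1 or 2, at adjusted p between 0.0555 and 0.0594. AGO2, the slicing Argonaute of RNA interference, had −0.17 (adjusted p = 0.220) and did not pass. The study names them as known targets and cites earlier reports for them. The gene lists used here were written with earlier results of these arrays known.

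Of a wider signature of 22 YAP/TAZ targets, 22 had a negative log2 fold change (16812 of 37201 over all genes). Their median was −0.28 (0.02 over all genes), and 7 were lower and 0 higher (0.446% and 0.304% over all genes). Besides ANKRD1, CCN1 and CCN2 these were AMOTL2, which binds and retains YAP, at −0.62 (adjusted p = 0.00415), CRIM1, a membrane protein that binds BMPs, at −0.52 (adjusted p = 0.00757), IGFBP3, a carrier of insulin-like growth factors, at −0.40 (adjusted p = 0.0463) and LATS2, the kinase that inactivates YAP and TAZ, at −0.33 (adjusted p = 0.0367). Without 1 array, between 5 and 7 of the 22 passed. IGFBP3 passed in 0 of these 9 fits (adjusted p up to 0.140) and LATS2 in 1, that without combination 2 replicate 3 (up to 0.147).

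**Figure D3:**
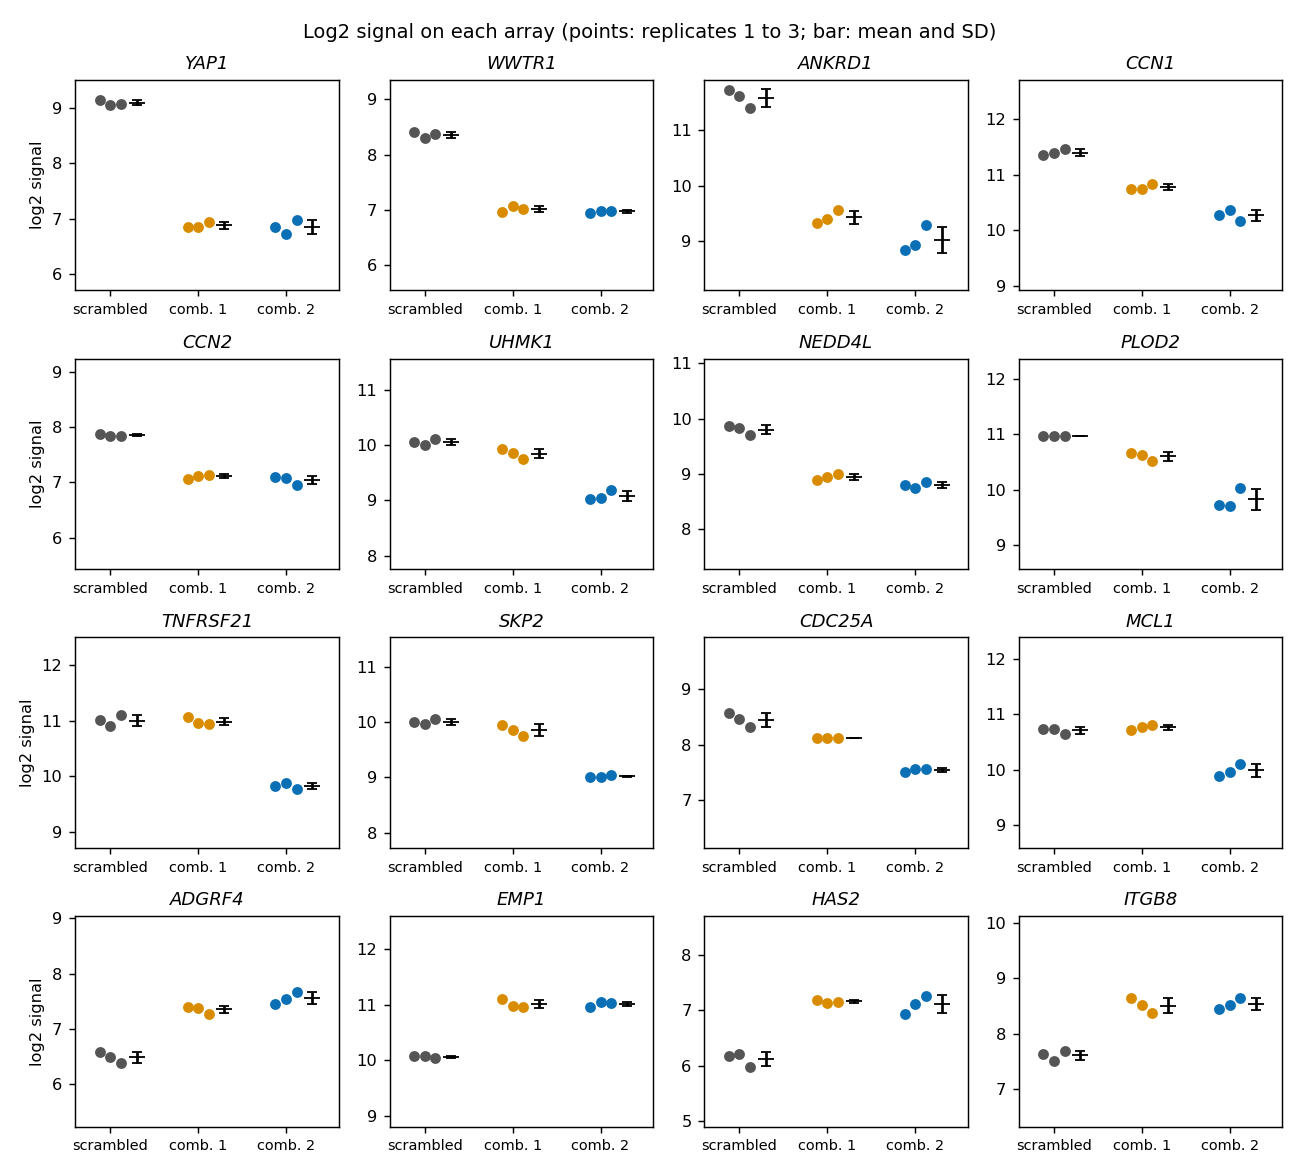
Log2 signal (vertical axes, each spanning the same width) of 16 genes on each array, by group; points are replicates 1 to 3 from left to right, and the bar shows the mean and SD of 3 arrays. In UHMK1, PLOD2, TNFRSF21, SKP2, CDC25A and MCL1 the combination 2 arrays lie below both other groups. The same holds, with combination 1 also below the scrambled arrays, in ANKRD1, CCN1 and NEDD4L. In EMP1, HAS2 and ITGB8 both silenced groups lie above the scrambled arrays.

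Among 35 measured kinases and upstream regulators of the Hippo pathway, 7 were lower and 0 higher (0.446% and 0.304% over all genes). AMOTL2 and LATS2 are among the 7 and were already counted in the target signature above, so the lists overlap. The median was −0.08, and 28 of 35 were negative (16812 of 37201 over all genes). NEDD4L, a ubiquitin ligase of the NEDD4 family, had 9.87, 9.83 and 9.71 with scrambled siRNA and 8.80, 8.76 and 8.86 with combination 2 (log2 fold change −0.998, standard error 0.062, adjusted p = 5.33e-04). WWC1 (KIBRA), an upstream activator of LATS kinases, had 9.77, 9.92 and 9.96 compared with 9.22, 9.20 and 9.05 (−0.72, adjusted p = 0.00353). NF2, which encodes Merlin, had 8.88, 8.83 and 8.91 compared with 8.41, 8.29 and 8.23 (−0.56, adjusted p = 0.00642). These 3 calls held in all 9 fits and the groups did not overlap. NEDD4, the founding member of its ligase family, had −0.83 (adjusted p = 0.0226) and AJUBA, a LIM protein that restrains LATS kinases, −0.37 (adjusted p = 0.0476). NEDD4 passed without scrambled replicate 3 or combination 2 replicate 3 alone (adjusted p up to 0.105 otherwise) and AJUBA without scrambled replicate 2 alone (up to 0.173). Without 1 array, between 4 and 6 of the 35 were lower.

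The DNA-binding partners did not pass. Of 8 TEAD and VGLL genes, 0 changed and the fold changes lay between −0.25 and 0.05. TEAD4 had −0.22 (adjusted p = 0.261) and VGLL1, a cofactor that competes for TEADs, −0.25 (adjusted p = 0.175). SMURF2, a further ligase of the NEDD4 family, fell from between 10.51 and 10.55 to between 9.92 and 10.02 (−0.56, adjusted p = 0.00352). It was picked after its values were seen.

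Genes of the extracellular matrix moved in both directions. PLOD2, the lysyl hydroxylase that prepares collagen for cross-linking, had 10.98, 10.97 and 10.97 with scrambled siRNA and 9.73, 9.71 and 10.04 with combination 2. The log2 fold change was −1.15 (standard error 0.090, adjusted p = 0.00138), and PLOD2 alone passed among 21 collagen modifying enzymes (median −0.01). COL8A1, a short-chain collagen, had 8.34, 8.11 and 8.13 compared with 7.03, 7.34 and 7.13 (−1.02, adjusted p = 0.00352). It was lower together with COL12A1, a collagen on the surface of fibrils, at −0.41 (adjusted p = 0.0387). They were the 2 of 34 collagen chains that passed (0.750% over all genes). Of the 34, 30 had a positive fold change (median 0.09), as had 20387 of all 37201 genes. COL12A1 passed in 1 of the 9 fits, that without combination 2 replicate 3 (adjusted p up to 0.157). Outside the lists, EFEMP1 (fibulin-3) had −0.52 (adjusted p = 0.0159) and ADAMTS12, a secreted protease, −0.54 (adjusted p = 0.00740), both picked after their values were seen. EFEMP1 was lost without any 1 scrambled array or combination 2 replicate 1 or 2 (adjusted p up to 0.0850).

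Of 22 metalloproteinases and inhibitors, 3 were higher and 0 lower (0.304% and 0.446% over all genes). MMP1, the interstitial collagenase, had 7.72, 7.64 and 7.54 with scrambled siRNA and 8.44, 8.58 and 8.78 with combination 2 (log2 fold change 0.97, standard error 0.11, adjusted p = 0.00873). MMP7 (matrilysin) had 0.66 (adjusted p = 0.0202) and MMP14, a membrane-bound protease that activates other MMPs, 0.53 (adjusted p = 0.0294). The list median was 0.06 (0.02 over all genes). None of the 3 calls was stable to the loss of an array. MMP1 narrowly missed the threshold without scrambled replicate 2 (adjusted p = 0.0514) or combination 2 replicate 2 (0.0502), MMP7 without scrambled replicates 1 or 2 or combination 2 replicates 1 or 2 (up to 0.0850), and MMP14 passed without combination 2 replicate 3 alone (up to 0.125).

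HAS2, a synthase of hyaluronan, had 6.17, 6.22 and 5.98 with scrambled siRNA and 6.94, 7.12 and 7.26 with combination 2 (0.98, standard error 0.092, adjusted p = 0.00352). The hyaluronan-degrading CEMIP had −0.43 (adjusted p = 0.0410, and up to 0.144 when an array was left out, with a call in 1 of 9 fits, without combination 2 replicate 3). These were the 2 of 11 hyaluronan genes that passed (0.750% over all genes). VCAN (versican), a proteoglycan that binds hyaluronan and was picked after its values were seen, had 7.81, 7.77 and 7.84 compared with 8.34, 8.43 and 8.48 (0.61, adjusted p = 0.00753).

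The integrin chains ITGB8 and ITGB6, known to activate TGF-beta, were higher. ITGB8 had 7.64, 7.51 and 7.68 with scrambled siRNA and 8.44, 8.53 and 8.65 with combination 2 (log2 fold change 0.93, standard error 0.086, adjusted p = 0.00352) and held in all 9 fits. ITGB6 had 7.11, 6.89 and 6.97 compared with 7.50, 7.75 and 7.98 (0.76, adjusted p = 0.0316), but passed in 2 of the 9 fits, without combination 2 replicate 1 or 3, with an adjusted p up to 0.134. Of 20 integrins, 2 were higher and 0 lower (0.304% and 0.446% over all genes). A positive fold change was found in 19 (median 0.10), as in 20387 of all 37201 genes. LAMA4, a laminin chain, had 0.43 (adjusted p = 0.0294) and passed in 1 fit, without scrambled replicate 3 (up to 0.131). In the TGF-beta list, INHBA, a subunit of activin, had 8.18, 8.34 and 8.08 compared with 7.34, 7.36 and 7.56 (−0.78, adjusted p = 0.00678), and the receptor BMPR2 had 0.31 (adjusted p = 0.0301, in 1 fit of 9, without combination 2 replicate 3, and up to 0.128). The remaining 25 of 27 did not pass.

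TNFRSF21 was the 1 gene that passed the test as lower among 29 TNF receptors measured (0.446% over all genes). This death receptor (DR6) had 11.01, 10.90 and 11.10 with scrambled siRNA and 9.82, 9.88 and 9.77 with combination 2 (log2 fold change −1.18, standard error 0.068, adjusted p = 4.29e-04). TNFRSF11B (osteoprotegerin), a decoy receptor for RANKL and TRAIL, had 8.17, 8.15 and 8.19 compared with 8.69, 8.72 and 8.90 (0.60, adjusted p = 0.00678). The other 27 did not pass. CCL20, a chemokine for CCR6-bearing lymphocytes, had 10.32, 10.42 and 10.39 compared with 8.94, 9.05 and 9.80. Replicate 3 lay nearest to the scrambled arrays, and the change of −1.11 (adjusted p = 0.0458) passed again only without this array, with an adjusted p up to 0.171 in the other fits. IL1RN, the antagonist of the interleukin-1 receptor, had 0.43 (adjusted p = 0.0161) and lost the call without any 1 scrambled array or combination 2 replicate 1 or 2 (up to 0.0850).

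Both ligands of the EGF receptor that passed moved apart. EREG (epiregulin) had 10.78, 10.72 and 10.77 with scrambled siRNA and 11.25, 11.30 and 11.47 with combination 2 (0.58, adjusted p = 0.00819), and HBEGF, the heparin-binding ligand, had 9.56, 9.62 and 9.55 compared with 9.17, 9.14 and 9.18 (−0.42, adjusted p = 0.0104). EREG missed the threshold without scrambled replicate 2 (0.0514). HBEGF missed it without scrambled replicate 2 or combination 2 replicate 1 or 2 (up to 0.0616). CD274, which encodes the immune checkpoint ligand PD-L1 and was picked after its values were seen, had 9.51, 9.51 and 9.44 compared with 8.80, 8.88 and 8.89 (−0.63, adjusted p = 0.00352).

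ADGRF4 had the largest increase among the called genes. ADGRF4, an orphan adhesion GPCR, had 6.59, 6.49 and 6.39 with scrambled siRNA and 7.45, 7.54 and 7.67 with combination 2 (log2 fold change 1.06, standard error 0.077, adjusted p = 0.00110). Its relative ADGRF1 had 8.84, 8.67 and 8.95 compared with 9.35, 9.42 and 9.44 (0.58, adjusted p = 0.0161), and was lost without scrambled replicate 1 or combination 2 replicate 1 or 2 (up to 0.0850). EMP1, a tetraspan protein of epithelial membranes, had 10.08, 10.07 and 10.04 compared with 10.96, 11.05 and 11.03 (0.95, standard error 0.056, adjusted p = 4.29e-04). LIPH, a phospholipase that makes lysophosphatidic acid, had 0.78 (adjusted p = 0.00117), GALNT5, which starts O-glycans, 0.85 (adjusted p = 0.00117) and MAST4, a kinase, 0.92 (adjusted p = 0.00116). These calls, ADGRF1 apart, held in all 9 fits.

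Of the junction genes, CLDN4, a tight junction claudin, had 10.11, 10.04 and 10.03 with scrambled siRNA and 10.80, 10.83 and 10.56 with combination 2 (0.67, adjusted p = 0.00862, 0.0523 without scrambled replicate 2). DSG3, a desmosomal cadherin, had 7.14, 7.11 and 7.04 compared with 7.70, 7.77 and 7.87 (0.69, adjusted p = 0.00466). DSC2, its partner desmocollin, had 0.49 (adjusted p = 0.0258) and GRHL3, a factor of epidermal differentiation, 0.47 (adjusted p = 0.0394). These were the 3 of 35 squamous genes that passed (0.750% over all genes), with a list median of −0.02. DSC2 passed in 2 of the 9 fits, without combination 1 replicate 3 or combination 2 replicate 3 (adjusted p up to 0.115), and GRHL3 in 1, without scrambled replicate 3 (up to 0.156). Of 16 genes of epithelial-mesenchymal transition, SNAI2 (Slug), a repressor of epithelial genes, had 10.04, 10.12 and 9.86 compared with 9.25, 9.33 and 9.38 (−0.69, adjusted p = 0.00819), and ESRP1, an epithelial splicing factor, had 0.45 (adjusted p = 0.0474), a call that held in 0 of the 9 fits (up to 0.171). CEACAM6, an adhesion protein of glandular epithelium, had 7.97, 7.93 and 7.90 compared with 8.47, 8.54 and 8.51 (0.57, adjusted p = 0.00564), and CDH6, a cadherin, 9.97, 9.95 and 10.06 compared with 10.54, 10.58 and 10.55 (0.56, adjusted p = 0.00350). Both were picked after their values were seen.

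Of 27 proton pump and lysosomal channel genes, 1 was higher and 1 lower (0.304% and 0.446% over all genes). ATP6V0D2, part of the proton pump of lysosomes, had 5.80, 5.73 and 5.73 with scrambled siRNA and 6.70, 6.75 and 6.88 with combination 2 (log2 fold change 1.02, adjusted p = 0.00102). OSTM1, the partner of the lysosomal chloride transporter ClC-7, had 6.86, 6.80 and 6.29 compared with 5.15, 5.25 and 5.81 (−1.25, adjusted p = 0.0299), and passed in 2 of the 9 fits, without scrambled replicate 3 or combination 2 replicate 3 (up to 0.132). The remaining 25 did not pass. PTGS2 (COX-2), which makes prostaglandins and was picked after its values were seen, had 0.51 (adjusted p = 0.0108) and HPGD, which degrades them, 0.68 (adjusted p = 0.0107). Without scrambled replicate 2 or combination 2 replicate 2 neither passed (adjusted p between 0.0509 and 0.0626).

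2 regulators of the entry into S phase were lower. SKP2, the ubiquitin ligase subunit that removes the inhibitor p27, had 10.00, 9.96 and 10.05 with scrambled siRNA and 9.01, 9.01 and 9.03 with combination 2 (log2 fold change −0.98, standard error 0.063, adjusted p = 5.45e-04). CDC25A, the phosphatase that activates CDK2, had 8.57, 8.46 and 8.31 compared with 7.50, 7.57 and 7.55 (−0.91, standard error 0.069, adjusted p = 0.00117). They were the 2 of 29 G1/S genes that passed (0.750% over all genes), in all 9 fits, with a list median of −0.04. CDC23, a subunit of the anaphase-promoting complex picked after its values were seen, had 9.96, 10.02 and 10.07 compared with 9.26, 9.33 and 9.42 (−0.68, adjusted p = 0.00352).

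Of 39 genes of mitosis and the spindle checkpoint, 3 were lower and 0 higher (0.446% and 0.304% over all genes). A negative fold change was found in 38, as in 16812 of all 37201 genes. The list median was −0.25, compared with 0.02 over all genes. BUB1, a checkpoint kinase, had −0.43 (adjusted p = 0.0299), PRC1, which bundles microtubules in the central spindle, −0.37 (adjusted p = 0.0476) and TPX2, an activator of Aurora A, −0.34 (adjusted p = 0.0450). Without 1 array, between 0 and 2 of the 39 passed. BUB1 passed without combination 1 replicate 2 or 3, PRC1 without combination 1 replicate 3 and TPX2 in none of the fits (adjusted p up to 0.180 over the 3 genes). Of the CIN25 signature, a published score of chromosomal instability, PRC1 and TPX2 were the 2 of 25 genes that passed (0.750% over all genes). Its median was −0.13. Of 42 DNA replication genes 0 passed (median −0.03), with MCM10, an initiation factor, at −0.25 (adjusted p = 0.0721) and CDC45, a helicase cofactor, at −0.33 (adjusted p = 0.0905), and of 25 homologous recombination and Fanconi genes 0 passed (median 0.03).

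**Figure D4:**
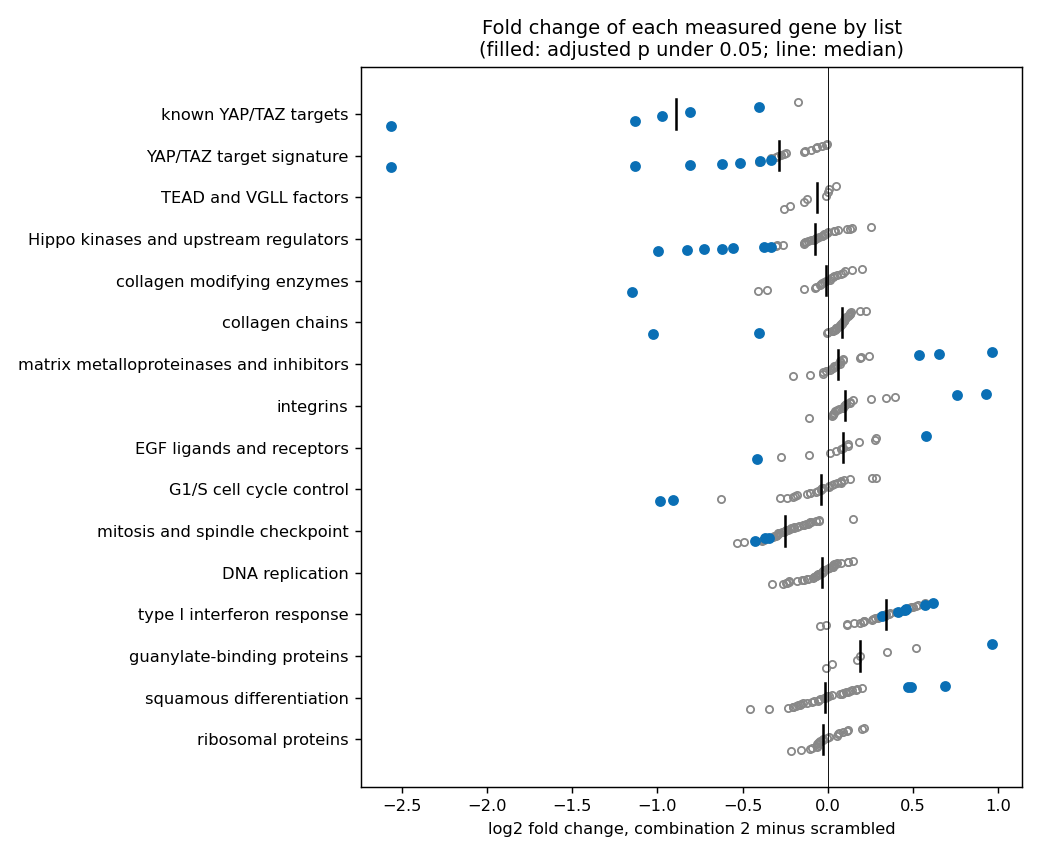
Log2 fold change (combination 2 minus scrambled, horizontal axis) of every measured gene in 16 lists (vertical axis); filled points have an adjusted p under 0.05, open points do not, and black lines mark list medians. The target signature, with a median of −0.28, and mitosis, with −0.25, lie left of 0, the interferon response, with 0.34, lies right, and the 42 DNA replication genes hold no filled point.

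Of 35 measured genes of the type I interferon response, 6 were higher and 0 lower (0.304% and 0.446% over all genes). A positive fold change was found in 33 of the 35, as in 20387 of all 37201 genes. The list median was 0.34, compared with 0.02 over all genes, and 29 did not pass. DDX60, a helicase that supports RNA sensing, had 7.18, 7.26 and 7.28 with scrambled siRNA and 7.74, 7.94 and 7.88 with combination 2 (log2 fold change 0.62, standard error 0.063, adjusted p = 0.00509), and was the one of the 6 that held in all 9 fits. IFI44 had 7.61, 7.86 and 7.73 compared with 8.20, 8.31 and 8.41 (0.57, adjusted p = 0.0324), and SAMD9, an antiviral factor, 9.59, 9.84 and 9.62 compared with 10.04, 10.15 and 10.22 (0.46, adjusted p = 0.0457). HERC6, an E3 ligase family member, had 0.46 (adjusted p = 0.0294), and PARP9 and its binding partner DTX3L had 0.41 (adjusted p = 0.0183) and 0.32 (adjusted p = 0.0456). Without 1 array between 1 and 7 of the 35 passed, the lowest count without scrambled replicate 1 or combination 2 replicate 2. IFI44 passed in 0 of the 9 fits, SAMD9 without scrambled replicate 2, DTX3L without combination 2 replicate 3, HERC6 without scrambled replicate 3 or combination 2 replicate 3, and PARP9 in 4, without any 1 combination 1 array or without combination 2 replicate 3 (adjusted p up to 0.170 over these 5 genes).

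TNFSF10 (TRAIL), a death ligand that interferon induces, had 7.56, 7.70 and 7.53 with scrambled siRNA and 8.38, 8.42 and 8.45 with combination 2 (0.82, standard error 0.063, adjusted p = 0.00119). GBP6, a guanylate-binding GTPase, had 7.61, 7.69 and 7.54 compared with 8.50, 8.63 and 8.60 (0.96, adjusted p = 0.00117). The other 6 of 7 guanylate-binding protein genes did not pass, with GBP2 next at 0.52 (adjusted p = 0.0698). TNFSF10 and GBP6 held in all 9 fits.

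Combination 2 was also compared directly with combination 1, which uses other siRNAs against the same 2 genes. Both are measured against the same 3 scrambled arrays, so the values are given side by side. In the direct comparison 124 genes (0.333%) differed, 88 below (0.237%) and 36 above combination 1 (0.0968%). With combination 1, 563 genes passed against scrambled siRNA (1.51%), 310 lower (0.833%) and 253 higher (0.680%). Of the 279 genes called with combination 2, 37 also differed from combination 1. Of these, 23 were lower and lay below combination 1, 1 was lower and lay above it, 2 were higher and lay above it, and 11 were higher and lay below it.

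The 23 genes included regulators of growth and survival. TNFRSF21 had −1.18 with combination 2 and −0.02 with combination 1 (difference −1.16, 95% interval −1.32 to −1.01, adjusted p = 5.36e-04). SKP2 had −0.98 and −0.15 (difference −0.83, adjusted p = 0.00127), UHMK1 −0.97 and −0.21 (−0.76, adjusted p = 0.00308) and LTAP1 −0.80 and 0.03 (−0.83, adjusted p = 5.44e-04). MCL1, an inhibitor of apoptosis that, like SDC4, was picked after its values were seen, had 10.74, 10.73 and 10.64 with scrambled siRNA and 9.88, 9.96 and 10.11 with combination 2 (−0.72, adjusted p = 0.00353), compared with 0.06 with combination 1 (difference −0.78, adjusted p = 0.00247). SDC4 (syndecan-4), a heparan sulfate proteoglycan of focal adhesions, had 10.04, 10.05 and 10.10 compared with 9.40, 9.47 and 9.39 (−0.64, adjusted p = 0.00313), and 0.02 with combination 1 (difference −0.66, adjusted p = 0.00243). These 6 differences passed in all 9 fits without 1 array. 

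Other differences depended on an array. PLOD2 had −1.15 and −0.37 (difference −0.78, adjusted p = 0.0111), CDC25A −0.91 and −0.33 (−0.58, adjusted p = 0.0130), CCN1 −1.13 and −0.62 (−0.51, adjusted p = 0.0211) and MBTPS2, the site-2 protease that releases SREBP, −0.84 and −0.15 (−0.69, adjusted p = 0.00910). RAC1, a GTPase of lamellipodia also picked after its values were seen, had −0.65 and 0.06 (−0.71, adjusted p = 0.00938), CLDN12, a claudin, −0.78 and 0.09 (−0.87, adjusted p = 0.0218), and TMTC3, an O-mannosyltransferase of the endoplasmic reticulum, −1.04 and −0.13 (−0.91, adjusted p = 0.0274). Without 1 array the difference of PLOD2 passed in 5 of 9 fits, that of CDC25A and of CCN1 in 4, of MBTPS2 in 7, of RAC1 in 6, of CLDN12 in 3 and of TMTC3 in 1, with adjusted p up to 0.135. The change of RAC1 and of TMTC3 against scrambled siRNA itself missed the threshold without scrambled replicate 1 (0.0637 and 0.0584) or combination 2 replicate 2 (0.0616 and 0.0566), and that of CLDN12 passed without combination 2 replicate 3 alone (up to 0.112).

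The 11 genes that rose less than with combination 1 were led by interferon response genes. IFI44 had 0.57 with combination 2 and 1.80 with combination 1 (difference −1.23, adjusted p = 0.00112), DDX60 0.62 and 1.38 (−0.77, adjusted p = 0.00213), SAMD9 0.46 and 1.30 (−0.84, adjusted p = 0.00375), PARP9 0.41 and 1.19 (−0.78, adjusted p = 0.00101) and TNFSF10 0.82 and 1.74 (−0.92, adjusted p = 8.11e-04). PARP14, an ADP-ribosyltransferase, had 0.40 and 1.37 (−0.97, adjusted p = 5.44e-04), but its change against scrambled siRNA passed in 0 of the 9 fits (up to 0.132). These 6 differences passed in all 9 fits. Over the whole list of 35 interferon response genes, 6 were higher with combination 2 and 34 with combination 1, and 27 differed between the combinations. For mitosis, 3 of 39 were lower with combination 2 and 22 with combination 1, and 0 differed. EPAS1 (HIF-2 alpha) was lower with both, by −0.39 and −0.85, and was the 1 lower gene above combination 1 (difference 0.46, adjusted p = 0.0130, passed in 5 of 9 fits). Its change with combination 2 passed in 3 of the 9 (adjusted p up to 0.0844). ATP6V0D2 had 1.02 and 0.48 (difference 0.54, adjusted p = 0.0248) and this difference passed in 1 of 9 fits, without combination 1 replicate 2.

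**Figure D5:**
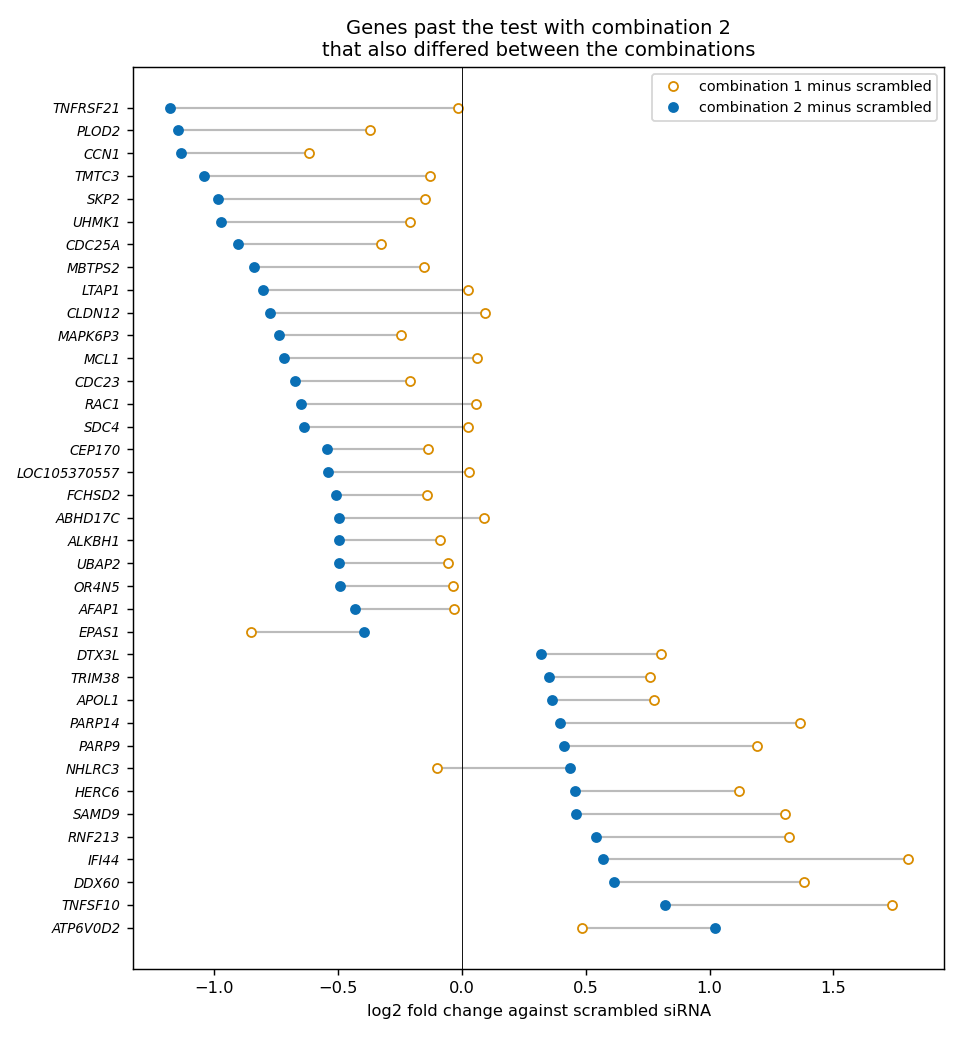
Log2 fold change against scrambled siRNA (horizontal axis) with combination 2 (filled) and combination 1 (open) for the 37 genes (vertical axis) that passed the test with combination 2 and also differed between the combinations. The 23 genes from TNFRSF21 to AFAP1 lie lower with combination 2, and the interferon response genes at the bottom lie higher with combination 1, up to 1.80 for IFI44.

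For several genes with large changes the direct comparison of the siRNA pairs did not pass the test. ANKRD1 differed by −0.41 (95% interval −0.70 to −0.11, adjusted p = 0.383), CCN2 by −0.06 (interval −0.19 to 0.06, adjusted p = 0.785), NEDD4L by −0.14 (interval −0.28 to −0.00, adjusted p = 0.550), EMP1 by 0.00 (interval −0.13 to 0.13, adjusted p = 0.998) and HAS2 by −0.05 (interval −0.26 to 0.16, adjusted p = 0.899). The intervals, and not the missed threshold, give the size of difference that remains possible for each of these genes.

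Among the other gene classes, 26 of 6062 pseudogenes passed (0.429%, compared with 0.750% of all genes), 25 of them lower and 1 higher. YAP1P1, a processed copy of YAP1, had 7.69, 8.08 and 7.22 with scrambled siRNA and 5.92, 5.58 and 5.66 with combination 2 (log2 fold change −1.94, adjusted p = 0.00415). It shares sequence with YAP1, so its value is uncertain. Of the 26 called pseudogenes, 19 carry the symbol of a gene that was tested, and in 2 of these (YAP1P1 and RBMS2P1) that gene passed in the same direction. The gene RBMS2 had −0.44 (adjusted p = 0.0173 from limma). It was lost without scrambled replicate 2 or combination 2 replicate 1 or 2 (up to 0.0850). The long non-coding RNA LASTR had 6.41, 6.42 and 6.32 compared with 7.25, 7.29 and 7.44 (0.95, adjusted p = 0.00352), and HIF1A-AS3, an antisense transcript at HIF1A, 7.004, 7.013 and 6.889 compared with 6.07, 5.98 and 6.27 (−0.86, adjusted p = 0.00352).

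Of the other lists, 0 genes passed among 15 NF-kB subunits and inhibitors, 19 ERK feedback genes, 15 AP-1 and immediate early factors, 20 p53 targets, 19 genes of the unfolded protein response, 15 of cholesterol synthesis, 19 of glycolysis and 22 ribosomal proteins. Their medians lay between −0.03 and 0.09. The values closest to the threshold were those of DUSP1, a phosphatase of MAP kinases, at −0.51 (adjusted p = 0.0649), and of SPRY2, an inhibitor of receptor signaling, at 0.35 (adjusted p = 0.125).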

How the data were processed

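RNA of HUCCT-1 cells was hybridized to Clariom D human arrays, 3 per group. Each deposited value is the log2 signal of 1 probe set, which the authors annotated with a custom chip definition file and background-corrected and normalized by RMA; RMA sets all arrays to 1 distribution, so a shift of all genes cannot be seen. The genome build behind the probe sets is not given in the sources used here. The same 7528 distinct values occur on 8 arrays, while scrambled replicate 1 holds 29641. Of 39334 probe sets, 37201 carry 1 gene name and 37154 matched RefSeq by Entrez identifier, while 2133 have no name here and were not tested with the others. Groups were taken from the sample labels. The siRNA sequences were not used here.

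Differences were fitted with limma 3.58.1 in R 4.3.3 as 3 group means on all 9 arrays (prior degrees of freedom 2.56), without a filter, with Benjamini-Hochberg adjustment over 37201 genes and a threshold of 0.05. Fold changes are on the log2 scale with moderated standard errors and 95% intervals. The procedure was also run on simulated data with known changes added. Its outcome is not given here, so that run adds no support to the changes reported. The members, the gene lists and the rule for named genes were chosen with earlier results of these data known. The rule takes the siRNA targets, the 7 known targets, the 25 largest increases and decreases among called genes without overlap, called list members (or the 2 with the smallest p), and the 10 largest differences each way from combination 1. Genes said to be picked after their values were seen fall outside it.

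The fit was repeated after omission of each array, with only the 6 arrays, with a weight for every array, with the replicate number as a block, with ordinary linear regression, with a trended and robust variance, after quantile normalization or centring on the median, without the dimmest 40% of probe sets, with a log2 fold change of at least 1, on all probe sets, on protein-coding genes only, and with scrambled replicate 1 at the precision of the other arrays.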

Additional observations from a re-analysis of the deposited data

Results flagged for a closer look

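Of 2133 probe sets without a gene name here, which are outside the comparisons of the report, 17 passed the limma test with combination 2 against scrambled siRNA when all 39334 probe sets were tested together, 8 higher and 9 lower. They were taken up because they hold a signal in data that the report does not use, and no gene is named for them.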

How the results depend on the processing

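Of 127 called genes taken up by the naming rule or added to it, not all are described above. Under every alternative that could be run for them, 38 of the 127 passed. This count leaves out the alternative that required a log2 fold change of at least 1. No fold change reversed its sign. The count of genes changed with combination 2 (279, with 113 higher and 166 lower) was 539 (253 and 286) without the dimmest 40% of probe sets, 425 (183 higher) with a variance trend and robust fit, 423 (171 and 252) with weights per array, 733 (366 and 367) among protein-coding genes only, 55 (22 and 33) with only the 6 arrays, and 14 (3 and 11) at a log2 fold change of at least 1. Leaving out 1 array gave between 81 and 358 changed genes, between 30 and 118 higher and between 50 and 240 lower. The 124 genes that differed between the combinations became 226 without the dimmest 40%, 187 with the trend, 73 with an ordinary linear model, 340 among protein-coding genes, 19 at a log2 value of at least 1, and between 48 and 124 without 1 array. Quantile normalization and median centring left 275 and 278 changed genes.

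Same-numbered scrambled and combination 2 arrays did not deviate together (correlations of −0.09, −0.04 and −0.18), so the replicate numbers were not taken as pairing. A replicate block gave 48 changed genes (19 higher and 29 lower), all among the 279, and 42 that differed between the combinations. The cause of these shifts was not tested. Fewer arrays and fewer genes tested follow from how some alternatives are built.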
